A study of Mus musculus with 800 samples.

Results

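Ppp1r17, Pou3f1, Pou3f2, Thsd7b, Fstl5 and Peli2 are 6 genes of 49585 gene rows measured in single cells of the mouse retina at E15.5, an embryonic day when ganglion cells are being born and extend axons. They were chosen by measured values: each was picked after earlier results of these cells, among genes that lead a Cntn2-rich group of retinal ganglion cells or that are detected together with Ppp1r17. Their levels between the labels and their joint detection are therefore given as descriptions, with no test. All 6 were found in the table.

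The cells came from dissociated, cell-sorted retinas of C57BL/6 embryos carrying Sert-Cre, a Cre recombinase driven by the serotonin transporter gene Slc6a4, and carried 1 of 2 genotype labels, Tomato+ or Tomato- (400 cells each). The labels describe several retinas dissociated together and name no animal per cell, so each label is treated as 1 pooled sample. Cells with at most 20% of counts in mitochondrial genes were kept, which left 689 of 800 cells, 47.5% of them Tomato+. A cell was called Pou4f-positive with at least 5 counts of Pou4f1 or Pou4f2, transcription factors of retinal ganglion cells. This is a range of 2 genes and not a cell type, and it held 419 cells, 63.7% of them Tomato+ and 36.3% Tomato-.

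Retinal ganglion cells are the projection neurons of the eye, and their axons either cross the midline or stay on the side of their own eye. The serotonin transporter is transiently made in many of the axons that stay uncrossed. Cntn2 is an axonal adhesion molecule of the immunoglobulin superfamily, found on many young axons. POU factors of class III bind DNA through a POU-specific domain and a homeodomain, and they act in many developing neurons and glia.

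The labels and the marker range were checked as follows. In Pou4f-positive cells, Slc6a4 was at 109.1 CPM (summed counts of the gene scaled to 1000000 counts in all) in the Tomato+ cells against 0.655 CPM in the Tomato- cells. The 6 ganglion cell markers had a median detection of 99.8% of Tomato+ and 91.1% of Tomato- Pou4f-positive cells. The lowest of them was Rbpms, found in 90.6% of the Tomato+ and 59.9% of the Tomato- cells. The 6 progenitor markers summed to 50.2 and 1238 CPM, and 2 Tomato+ and 52 Tomato- cells had at least 3 of them. None of these 6 markers, the 4 neurogenic precursor markers, the 5 amacrine or horizontal markers or the 4 photoreceptor markers was at 0 in either label. Median totals were 279850 and 319257 counts per cell, and 15 Tomato+ and 21 Tomato- cells sat at 5 to 9 counts of their higher Pou4f gene, just inside the limit. Counting intervals below are exact 95% intervals and cover counting error only.

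Each cell title carries a number, 1 to 10 for Tomato+ and 11 to 20 for Tomato- cells, whose meaning is not given, and each number held 12 to 32 Pou4f-positive cells. Summed levels per title number show the spread within a label, although these numbers are not replicates. Title number 17 had the highest Tomato- level of all 6 genes. It held 12 Pou4f-positive cells, 9 of them with Cntn2 and 4 with at least 3 progenitor markers, with a median total of 402388 counts. How far depth or progenitor markers take part in its levels was not tested.

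Ppp1r17 encodes an inhibitor of the protein phosphatases PP1 and PP2A that is activated by cGMP-dependent kinase and is best known from cerebellar Purkinje cells. The gene has 5 exons in its longest transcript and lies at chr6:56017497-56032689 on the plus strand (GRCm38). In Pou4f-positive Tomato+ cells its level per title number had a lowest value of 7.51, a median of 14.4 and a highest value of 31.8 CPM. In Tomato- cells the lowest value was 27.7, the median 66.7 and the highest 249.2 CPM. The labels overlapped, with 8 of 10 Tomato- title numbers above the highest Tomato+ one. Summed per label, Ppp1r17 was at 16.6 CPM (interval 15.7 to 17.6) under the Tomato+ label, against 90.9 CPM (88.2 to 93.6) under Tomato-. That is a log2 ratio, Tomato- over Tomato+ with 10 CPM added, of 1.92, against an SD of 0.69 over title numbers. It was 1.67 without title number 17 and 2.10 without the cells with at least 3 progenitor markers.

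Few cells carried most of the Ppp1r17 counts. At least 5 counts were found in 20 Tomato+ cells (7.49% of the Pou4f-positive ones, 4.64 to 11.3%) and 39 Tomato- cells (25.7%, 18.9 to 33.4%). Those cells had median counts of 52.5 and 76, and the 5 highest cells held 45% of the Tomato+ and 36.5% of the Tomato- counts. After each cell was thinned to 94783 counts the shares were 6.61% and 22.6%.

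**Figure D1:**
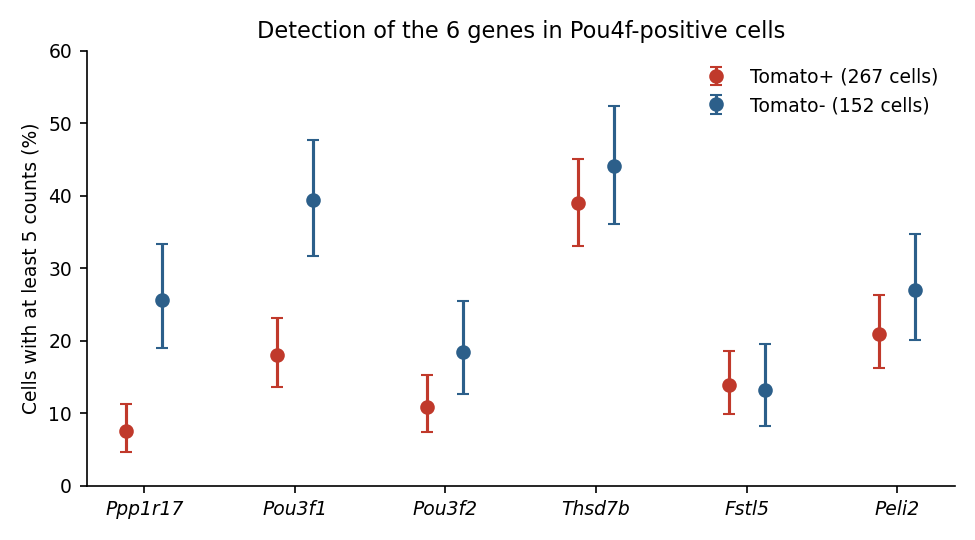
Share of Pou4f-positive cells (%) with at least 5 counts of each gene, with exact 95% intervals, by label. The intervals of the labels are apart for Ppp1r17 (7.49% and 25.7%) and Pou3f1 (18% and 39.5%) and overlap for the other 4 genes.

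Pou3f1, a class III factor known from myelinating Schwann cells and cortical neurons, is a gene of 1 exon at chr4:124656807-124660655 on the plus strand. Its Tomato+ title numbers had a lowest value of 3.97, a median of 14.2 and a highest value of 28.5 CPM. The Tomato- title numbers ran from 14.3 through a median of 70 to 132.3 CPM, and 9 of 10 were above the highest Tomato+ value. Summed levels were 15.3 and 70.7 CPM, a log2 ratio of 1.67 (SD 0.64). Detection was 48 Tomato+ cells (18%, 13.6 to 23.1%) and 60 Tomato- cells (39.5%, 31.6 to 47.7%). Thinning lowered these shares to 10.5% and 29.5%.

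Pou3f2, a class III factor of cortical and hypothalamic neurons, is likewise a gene of 1 exon, at chr4:22482780-22488366 on the minus strand. Its Tomato+ title numbers had a lowest value of 4.49, a median of 11 and a highest value of 28.6 CPM, and the Tomato- ones 6.52, 22.4 and 63.2 CPM. The labels overlapped widely, with 4 of 10 Tomato- title numbers above all Tomato+ ones. The log2 ratio of the summed levels was 0.60, within the SD of 0.62. In the cells that carried Pou3f2 progenitor markers were also present, and their part in its level was not tested: they summed to 1693 CPM in the 28 Tomato- cells with Pou3f2 and 1120.5 CPM in the other Tomato- cells, and to 35.7 and 52.1 CPM in Tomato+ cells, so the direction differed between the labels.

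Peli2 encodes a Pellino E3 ubiquitin ligase, a family known from IRAK signalling downstream of Toll-like receptors. It lies at chr14:48120823-48281575 on the plus strand and its longest transcript has 6 exons. In Tomato+ cells the title numbers had a lowest value of 14.5, a median of 33.9 and a highest value of 68.2 CPM. In Tomato- cells they had 0, 47.3 and 228.8 CPM, with low and high values on both sides of the Tomato+ range. The log2 ratio was 0.69 (SD 1.07) and was 0.33 without title number 17. Peli2 was detected in 21% of the Tomato+ cells (16.2 to 26.4%) against 27% of the Tomato- cells (20.1 to 34.8%), intervals that overlap.

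Thsd7b encodes a membrane protein with thrombospondin repeats, over 28 exons at chr1:129273302-130219278 on the plus strand. Its Tomato+ title numbers had a lowest value of 50.1, a median of 64.4 and a highest value of 109.4 CPM, and the Tomato- ones 15.6, 136.3 and 264.9 CPM. The Tomato- numbers lay both below and above the Tomato+ range, 6 of 10 above it. Detection was alike at 39% and 44.1%, while the median count of the positive cells was 35 in Tomato+ and 82 in Tomato- cells. The summed levels of 72.1 and 151.4 CPM gave a log2 ratio of 0.97 (SD 0.81), just under the 2-fold limit of 1 used here, and 1.16 without the cells with progenitor markers.

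Fstl5 encodes a secreted follistatin-like protein, with 16 exons at chr3:76074270-76710019 on the plus strand. Its Tomato+ title numbers had a lowest value of 3.04, a median of 22.4 and a highest value of 40.6 CPM, and the Tomato- ones 0.272, 16.5 and 75.4 CPM. Summed levels were 22.9 CPM in both labels. Detection was 13.9% (9.95 to 18.6%) and 13.2% (8.23 to 19.6%).

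Of the 6 members, 2 were thus at least 2-fold higher in Tomato- cells, Ppp1r17 and Pou3f1, and none was 2-fold lower. The count depends on the 10 CPM added: with 1 CPM Thsd7b also passed (1.06), and with 50 CPM Pou3f1 did not (0.89). Of 8491 genes with enough counts, 2.27% were 2-fold higher and 1.14% were 2-fold lower, and nothing is read from the members' count because the same contrast chose them. All 6 genes had overlapping title numbers, as did all but 0.33% of the genes. The members' median log2 ratio was 0.83, beside 0.032 over all those genes. Over all kept cells, where 6.32% of genes were 2-fold higher and 3.50% lower, the log2 ratios were 1.39 for Ppp1r17, 1.27 for Pou3f1, 0.44 for Pou3f2, 0.19 for Peli2, 0.12 for Thsd7b and -0.48 for Fstl5.

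**Figure D2:**
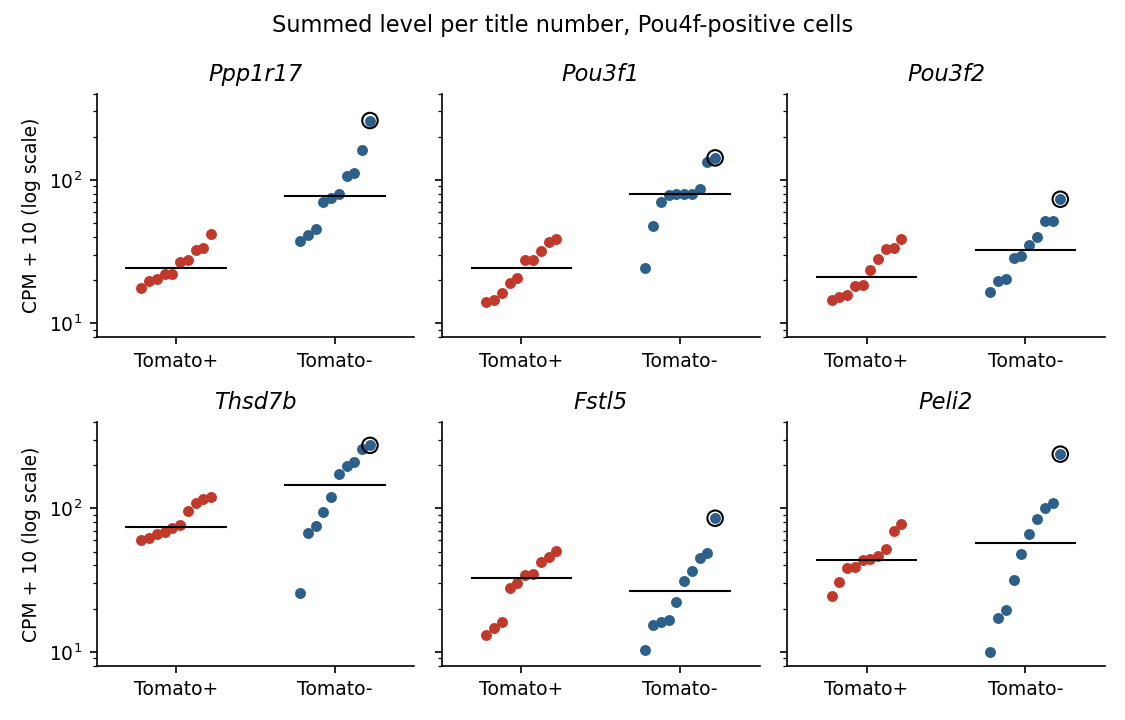
Summed level (CPM + 10, log scale) of each gene in the Pou4f-positive cells of each title number, 10 per label, sorted, with the median as a line and title number 17 circled. Tomato- points of Ppp1r17 and Pou3f1 lie mostly above the Tomato+ points, and those of Peli2, Thsd7b and Fstl5 lie on both sides of them.

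The members were not spread over the Pou4f-positive cells in the same way. In Tomato- cells the levels of Pou3f1, Peli2 and Thsd7b were positively correlated from cell to cell, as were those of Ppp1r17 and Peli2. The Pearson r of log2(CPM + 10) over these cells was 0.41 for Pou3f1 and Peli2, 0.39 for Pou3f1 and Thsd7b, 0.36 for Ppp1r17 and Peli2 and 0.35 for Thsd7b and Peli2. These values share 1 pooled sample, and depth differs between its cells. Progenitor markers differed too, summing to 378.4 CPM in Tomato- cells with Thsd7b and 2033.3 CPM in those without it. The sums were 762.0 and 1567.9 CPM for Pou3f1, 941.8 and 1354.7 CPM for Peli2 and 707.5 and 1463 CPM for Ppp1r17. The part of these markers in the correlations was not tested. Over 7377 genes in Tomato- cells, the 95th percentile of r was 0.195 for Thsd7b, 0.137 for Pou3f1, 0.154 for Peli2 and 0.160 for Ppp1r17. Ppp1r17 and Pou3f1 had an r of 0.075 there. In Tomato+ cells the highest r among the 15 pairs was 0.16, for Fstl5 and Peli2. The difference between the labels was not tested.

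By detection, too, Pou3f1 and Peli2 were the pair with the highest correlation in Tomato- cells (0.36 over presence and absence), while Pou3f1 and Thsd7b had 0.18. Of 41 Tomato- cells with Peli2, 28 had Pou3f1 (68.3%), against 28.8% of the Tomato- cells without Peli2. In Tomato+ cells Pou3f1 was found in 30% of the 20 cells with Ppp1r17 and 17% of those without, and in Tomato- cells in 51.3% of 39 and 35.4%. Peli2 was found in 35% of Tomato+ cells with Ppp1r17 and 19.8% of those without, and in 48.7% and 19.5% of the Tomato- cells. Thsd7b was found in 35% and 39.3% of Tomato+ cells, a lower share in the positive cells there, and in 56.4% and 39.8% of Tomato- cells. The cells with Ppp1r17 were deeper, with a median total of 339504 counts against 278160, and 374887 against 282713 within Tomato-. After thinning, over both labels, Peli2 was found in 44% of 50 cells with Ppp1r17 and 15% of those without, and Pou3f1 in 32% and 15.3%.

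Over both labels, 13 of the 15 pairs had a higher share of cells with 1 gene among cells with the other than among cells without it. Pou3f1, for example, was found in 26 of the 59 cells with Ppp1r17 and 42 of the 97 cells with Peli2. The same count over pairs of other genes was not made, and joint detection helped choose the members. Nothing is therefore read from the 13 pairs. At least 3 of the 6 genes were found in 27 Tomato+ cells (10.1%, 6.77 to 14.4%) and 40 Tomato- cells (26.3%, 19.5 to 34.1%). Ppp1r17, Pou3f1 and Peli2 were all found in 4 Tomato+ and 14 Tomato- cells, and 1 cell of the 419 had all 6 genes. The median total was 251614 counts in cells with none of the 6 and 327124 in cells with 3 or more.

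**Figure D3:**
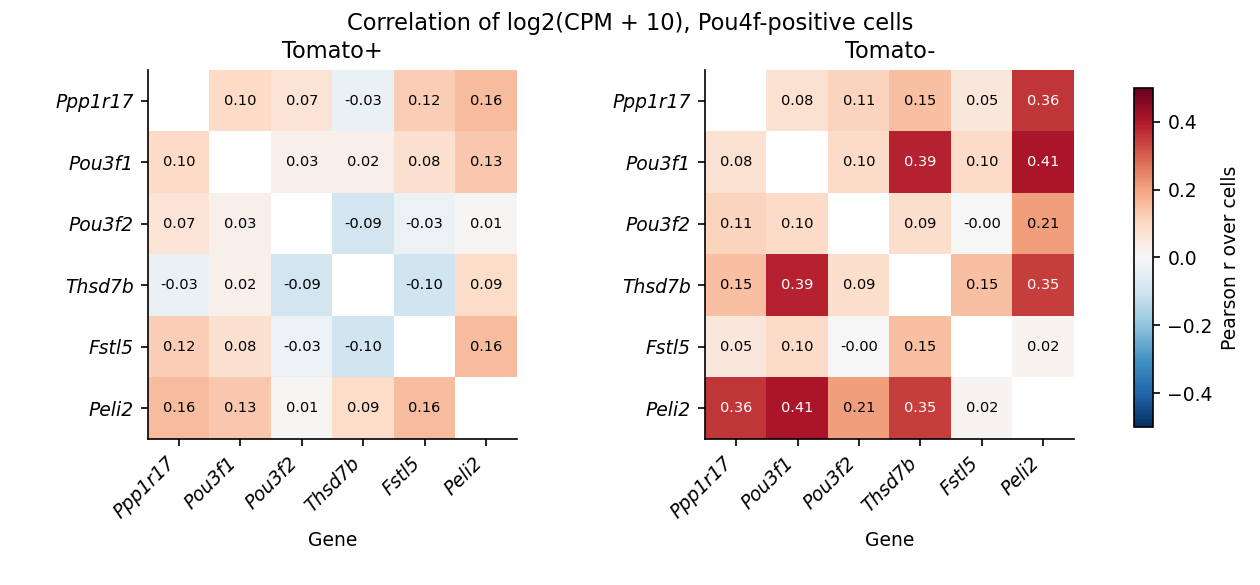
Pearson r of log2(CPM + 10) between the genes over the Tomato+ and the Tomato- Pou4f-positive cells, on a scale from -0.5 to 0.5. In Tomato- cells the pairs of Peli2 with Pou3f1 (0.41), Ppp1r17 (0.36) and Thsd7b (0.35) and of Pou3f1 with Thsd7b (0.39) stand out, and no Tomato+ pair passes 0.16.

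The Pou4f-positive cells were split by Cntn2 (at least 5 counts). Since some members were picked for leading a Cntn2-rich group, higher shares with Cntn2 follow in part from that choice and are a description only. In Tomato- cells, Pou3f1 was found in 58% (47 to 68.4%) of the 88 cells with Cntn2 and 14.1% (6.64 to 25%) of the 64 cells without it. Peli2 was found in 39.8% and 9.38% and Ppp1r17 in 37.5% and 9.38%. Thsd7b was found in 56.8% and 26.6%. For Pou3f2 the shares were 19.3% and 17.2%, and for Fstl5 17% and 7.81%, with overlapping intervals.

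The cells without Cntn2 held more progenitor markers, 50% of them having at least 3 against 22.7% of the cells with Cntn2, and their median total was 285796 against 330634 counts. Without the cells with progenitor markers, 68 cells with and 32 without Cntn2 were left. Pou3f1 was then found in 61.8% and 6.25%, Peli2 in 41.2% and 3.12% and Ppp1r17 in 38.2% and 12.5%. The Thsd7b shares moved to 54.4% and 43.8%. The intervals then overlapped for Thsd7b and also for Ppp1r17 (26.7 to 50.8% and 3.51 to 29%). After thinning, the shares were 48% and 9.86% for Pou3f1, 40% and 5.63% for Peli2, 34.7% and 9.86% for Ppp1r17 and 57.3% and 19.7% for Thsd7b.

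In Tomato+ cells the split by Cntn2 gave the following shares, and the difference between the labels was not tested. Peli2 was found in 32% (22.9 to 42.2%) of the 97 cells with Cntn2 and 14.7% (9.75 to 20.9%) of the 170 without, and of the 6 genes Peli2 alone had intervals apart. Pou3f1 was found in 23.7% and 14.7% and Ppp1r17 in 10.3% and 5.88%. Among cells with Cntn2, then, 58% of the Tomato- ones and 23.7% of the Tomato+ ones had Pou3f1, and 37.5% and 10.3% had Ppp1r17. Cntn2 itself was found in 57.9% of the Tomato- against 36.3% of the Tomato+ Pou4f-positive cells.

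**Figure D4:**
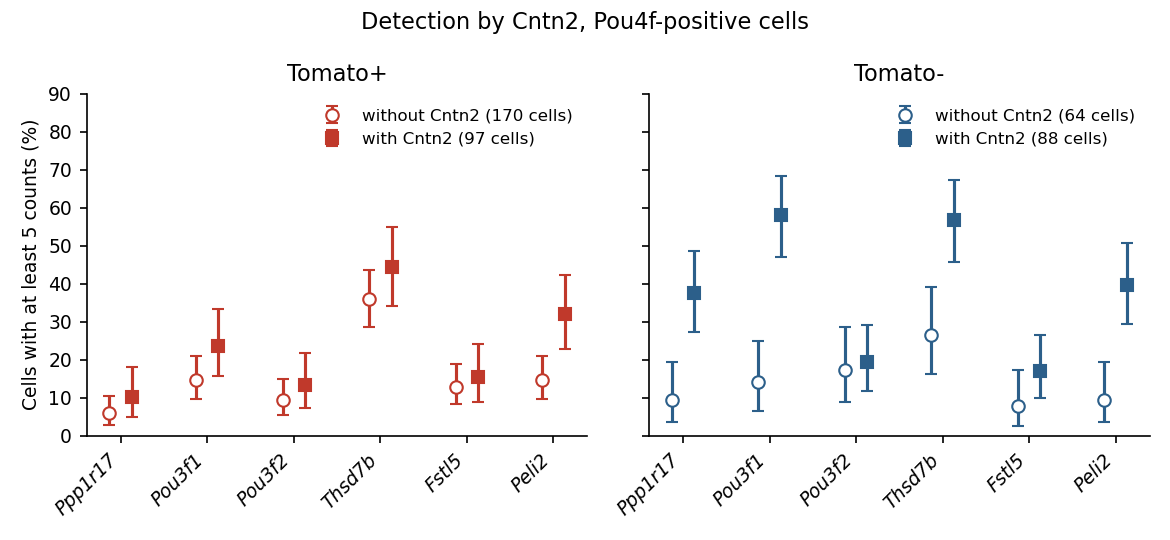
Share of Pou4f-positive cells (%) with at least 5 counts of each gene, with exact 95% intervals, in cells with (filled squares) and without (open circles) at least 5 counts of Cntn2. In Tomato- cells the intervals are apart for Ppp1r17, Pou3f1, Thsd7b and Peli2, and in Tomato+ cells for Peli2 alone.

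Genes most like Ppp1r17 and Pou3f1 were ranked by Pearson r over the 419 Pou4f-positive cells among 7671 genes. The 8 nearest to Ppp1r17 were Cntn2 (r = 0.30), Igfbp5 (0.30), Peli2 (0.28), Tub (0.27), Ptma (0.25), Insm1 (0.24), Nkain4 (0.24) and Hmgn1 (0.23). The 8 nearest to Pou3f1 were Cntn2 (0.44), Igfbp5 (0.36), Ptma (0.36), Barhl2 (0.31), Peli2 (0.30), Insm1 (0.28), Adcyap1 (0.25) and Sulf2 (0.25). Cntn2, Igfbp5, Peli2, Ptma and Insm1 stand in both lists. The members were picked for leading a Cntn2-rich group or for detection with Ppp1r17. The places of Cntn2 and Peli2 follow in part from that choice and are a description only. Igfbp5 encodes a binding protein of insulin-like growth factors, Insm1 a zinc-finger factor of newborn neurons, and Barhl2 a homeodomain factor of amacrine and ganglion cells. These correlations pool the labels, which differ in several of the genes: Igfbp5 was at 40.9 CPM under Tomato+ and at 139.6 CPM under Tomato-, and Insm1 at 7.94 and 40.6 CPM.

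Within the labels the correlation with Cntn2 had a higher value in Tomato- cells, a difference that was not tested. The choice of the members bears on these values and ranks too. For Pou3f1, Cntn2 ranked 1st of 7377 genes in Tomato- cells (r = 0.53) and 11th of 7725 in Tomato+ cells (r = 0.20). For Peli2 the correlation with Cntn2 was 0.55 in Tomato- and 0.22 in Tomato+ cells. For Ppp1r17 it was 0.33, rank 4, and 0.14, rank 160. For Pou3f2 it was 0.15 and 0.027, and for Fstl5 0.15 and 0.096. At the other end over both labels, Reln (-0.38), Myt1l (-0.34) and Cntnap2 (-0.33) were least like Pou3f1, and Cntnap2 (-0.29), Ntm (-0.27) and Gabbr2 (-0.25) were least like Ppp1r17.

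The relatives and pathway partners of the members were compared between the labels on the same scale, with 10 CPM added, which shrinks the ratios of genes at low levels. With 2.27% of all genes 2-fold higher and 1.14% lower, counts of 0 in lists this short are near the background. Of 9 other POU factors, 6 had enough counts and 0 passed 2-fold in either direction. Pou4f1 was at 145.7 and 234.4 CPM in Tomato+ and Tomato- cells and the class III relative Pou3f3 at 0.72 and 0.76 CPM. Pou4f1 and Pou4f2 are among the 6 and also define the Pou4f-positive cells, which bears on their ratios. Of 17 genes for phosphatase catalytic subunits, other phosphatase inhibitors and cGMP signalling, 11 had enough counts and 0 passed 2-fold. The catalytic subunit genes Ppp1ca (514 and 433 CPM) and Ppp2ca (452 and 430 CPM) were detected in most cells of both labels, and the cGMP-dependent kinase genes Prkg1 (3.05 and 9.15 CPM) and Prkg2 (0.24 and 3.63 CPM) in few. Of 7 Pellino and IRAK pathway genes, 3 had enough counts and 0 passed 2-fold, with Peli1 at 94.3 and 115.1 CPM. Of 5 follistatin and Thsd7 relatives, 1 passed 2-fold: Fst, an activin antagonist, was at 14.2 CPM under Tomato+ and at 0.021 CPM under Tomato-.

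Cells with Ppp1r17 were compared with the other Pou4f-positive cells over the same lists. Of 8683 genes with enough counts, 0.887% were 2-fold higher and 2.23% 2-fold lower in the 59 cells with Ppp1r17. Among the other 5 members, Pou3f1 (log2 ratio 1.01) and Peli2 (1.51) passed 2-fold, and the contrast that chose the members bears on that count. Within the labels Pou3f1 passed in neither, at 0.89 in Tomato+ and 0.39 in Tomato- cells. Peli2 passed in Tomato- cells alone, at 0.59 in Tomato+ and 1.82 in Tomato- cells. Of 9 contactins and partners, Cntn2 was higher, at 343.9 against 98.5 CPM (log2 ratio 1.71), and Cntnap2, a neurexin-like axonal protein, was lower, at 80.2 against 242.4 CPM (-1.48). The direction of both was the same within Tomato+ (0.80 and -0.93) and within Tomato- cells (1.28 and -1.44), although neither passed 2-fold in Tomato+ cells.

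Of 19 genes that mark subsets of ganglion cells, Cntn2 among them, 16 had enough counts, 8 were 2-fold lower and 1 was 2-fold higher in cells with Ppp1r17. The lower ones were Eomes (19 against 158.7 CPM), Slc6a4 (9.15 against 78.8), Ubash3b (74.6 against 290), Tac1 (9.34 against 51.4), Pnoc (17.2 against 69.4), Lmo2 (18.2 against 68.9), Ephb1 (41 against 116.7) and Igf1 (95 against 221.1). All 8 were also 2-fold lower in Tomato- than in Tomato+ cells, so the labels and Ppp1r17 overlap in this comparison. Within a label, Eomes, a T-box factor of a ganglion cell subset, was lower by log2 ratios of -1.98 in Tomato+ and -1.61 in Tomato- cells. Of the 8 genes, Eomes alone had log2 ratios past 2-fold within both labels, but within Tomato- it did not have enough counts for a ratio. Eomes was found in 5.13% of the Tomato- cells with Ppp1r17 and 8.85% of the other Tomato- cells. In Tomato+ cells the shares were 15% and 39.7%. For Ephb1, a guidance receptor of uncrossed axons, the log2 ratios within Tomato+ and Tomato- cells were -0.40 and -1.19. They were -0.24 and -1.24 for Igf1, -1.62 and -0.95 for Ubash3b and -1.10 and -0.64 for Tac1. For Pnoc they were -1.77 and -0.34, and for Lmo2 -1.98 and -0.64. Slc6a4 was lower by -1.69 in Tomato+ cells and was at 0.655 CPM over all Pou4f-positive Tomato- cells. Isl2, a LIM-homeodomain factor of crossed axons, was found in 7 of the 20 Tomato+ cells with Ppp1r17 (35%, 15.4 to 59.2%) and in 8.91% (5.67 to 13.2%) of the other Tomato+ cells, while in Tomato- cells the shares were 20.5% and 19.5%.

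Outside the Pou4f-positive range the members separated again. Other Tomato- cells were sorted in turn by at least 2 amacrine or horizontal markers (24 cells), at least 2 precursor markers (41 cells) and at least 3 progenitor markers, and 26 cells met none of these. Pou3f1 was found in 9 of the 24 cells with amacrine or horizontal markers (37.5%, 18.8 to 59.4%), a share close to that of the Pou4f-positive cells. Of these 24 cells, 13 had 1 to 4 counts of their higher Pou4f gene, just under the limit, and 10 had at least 3 progenitor markers. The range is thus not free of Pou4f counts and not a cell type. In cells with progenitor markers Pou3f1 was found in 17.6% (11.3 to 25.7%). Ppp1r17 was found in 4 of the 24 (16.7%, 4.74 to 37.4%), in 0 of the 41 cells with precursor markers, which allows a share of up to 7.32%, and in 5.88% (2.40 to 11.7%) of cells with progenitor markers. Limits given for shares of 0 are approximate, 3 divided by the number of cells, and are not exact intervals.

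Thsd7b and Fstl5 had the lowest shares of the 6 genes in the Tomato- cells with amacrine or horizontal markers and in those with progenitor markers. Thsd7b was found in 0 of 24, 2 of 41 and 1.68% of the cells of these ranges, and Fstl5 in 1 of 24, 0 of 41 (a share of up to 7.32%) and 0 of the cells with progenitor markers (up to 2.52%). Peli2 was found in 12.5%, 14.6% and 9.24% and Pou3f2 in 8.33%, 12.2% and 7.56%, below the Pou4f-positive shares of 27% and 18.4%. The intervals overlap those of the Pou4f-positive cells in the ranges of 24 and 41 cells. For Pou3f2 they also overlap in the cells with progenitor markers. Median totals were lower in these ranges, at 257826, 236045 and 207968 counts.

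**Figure D5:**
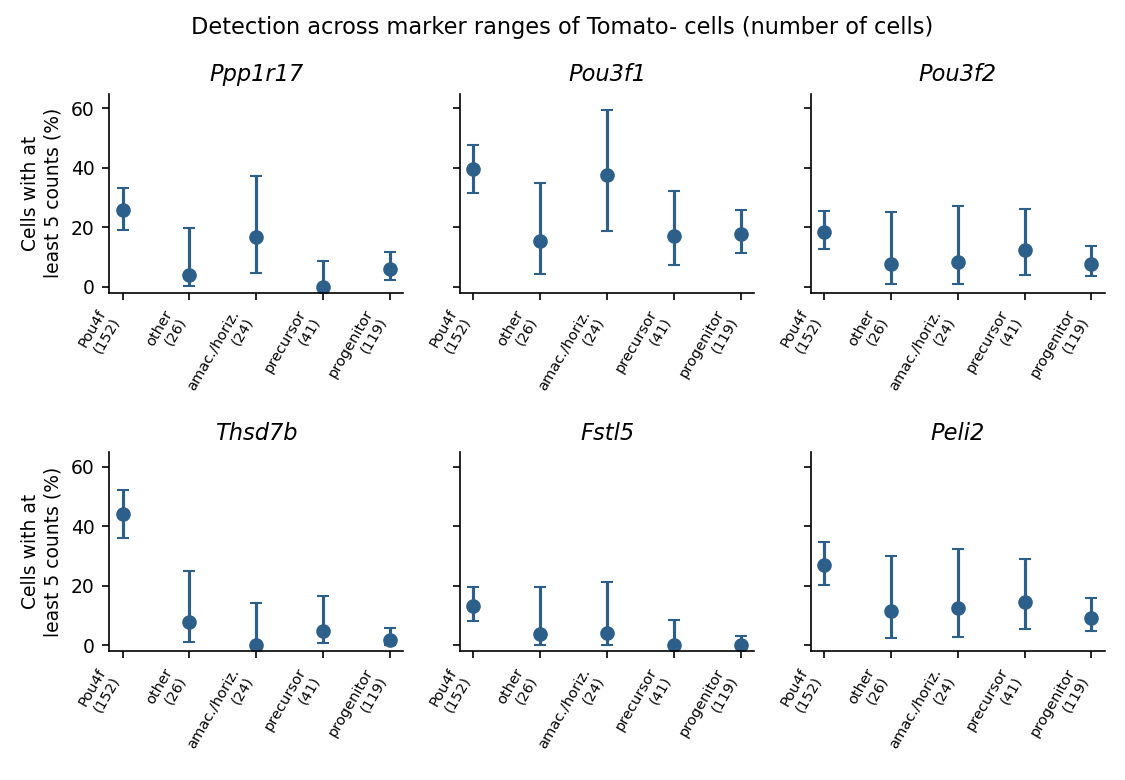
Share of Tomato- cells (%) with at least 5 counts of each gene, with exact 95% intervals, in 5 marker ranges with the number of cells in brackets. Pou3f1 is about as high in cells with amacrine or horizontal markers (37.5%) as in Pou4f-positive cells (39.5%). Of the 24 cells with amacrine or horizontal markers, 13 hold 1 to 4 counts of a Pou4f gene. Thsd7b is low in every range but the Pou4f-positive one (44.1%).

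Since Pou3f1 and Pou3f2 are DNA-binding factors and Peli2 and Thsd7b went with Pou3f1 in Tomato- cells, the promoters of these 2 genes are shown, from 250 bases before to 50 after the start (RefSeq, GRCm38.p6, 5′ to 3′ on the gene's plus strand). Of the 6 members, 4 were matched in the promoter table. Capitals mark ATGCA, the POU half-site, on either strand. Thsd7b is chr1:129273054-129273353 and Peli2 is chr14:48120619-48120918.
Thsd7b: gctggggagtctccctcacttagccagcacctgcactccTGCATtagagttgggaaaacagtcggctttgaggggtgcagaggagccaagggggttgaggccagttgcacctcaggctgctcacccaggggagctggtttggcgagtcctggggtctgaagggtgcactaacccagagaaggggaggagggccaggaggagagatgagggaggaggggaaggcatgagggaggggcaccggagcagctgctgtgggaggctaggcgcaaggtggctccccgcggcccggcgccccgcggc
Peli2: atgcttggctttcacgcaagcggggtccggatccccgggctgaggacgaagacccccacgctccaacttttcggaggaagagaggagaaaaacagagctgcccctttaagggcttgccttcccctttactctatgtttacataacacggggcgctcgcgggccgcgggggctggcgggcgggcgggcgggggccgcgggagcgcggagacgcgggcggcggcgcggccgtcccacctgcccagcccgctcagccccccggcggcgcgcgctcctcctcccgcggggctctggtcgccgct

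The Thsd7b window held 1 half-site and the Peli2 window none. Of the other matched members, the Pou3f2 window held 0, and the 2 windows of Fstl5, whose level had an r of 0.10 with Pou3f1 in Tomato- cells, held 1 and 3. Across the table, 32.6% of 32851 promoters of this length hold at least 1. The octamer ATGCAAAT, which contains the half-site, was in neither window and in 1.74% of all promoters. The homeodomain core TAAT, searched on both strands, was found once in the Thsd7b window, not in that of Peli2, and in 58% of all promoters. A match is a stretch of letters and not a bound site. Whether Pou3f1 or Pou3f2 binds or regulates any of these genes was not tested.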

How the data were processed

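The deposited table holds whole-number counts per gene and cell that the authors did not normalise. The submitters' processing notes name Seurat 2.3, R 3.4.4 and mm10, and the labels' protocols name SmartSeq2. The aligner, the counter and whether counts are molecules or reads are not given in the sources used here. Columns were matched to cells by title, and 1 of 801 columns matched none and was not used. The 93 rows with a repeated symbol stayed in totals and were not named, and 0 cell columns were identical. No doublets were called.

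Counts were summed per label and given as CPM with exact Poisson intervals, and shares of cells with exact Clopper-Pearson intervals (scipy 1.17.1). Log2 ratios added 10 CPM. A gene had enough counts for a ratio where 10% or more of the cells on either side held 5 counts of it. Each label is 1 sample, so no p-value was made. Kept cells had 9653 to 689788 counts. Named genes are the 6 members, list genes past 2-fold and the 8 nearest genes by r, with predicted genes passed over. Pathway relatives named without passing 2-fold, Reln and other least-like genes, and Isl2 were chosen after their values were seen. The members and lists were chosen with earlier results of these data known. Alternatives were other added counts, detection limits and filters, thinned cells, single labels, left-out title numbers, and scaling by TMM (edgeR 4.0.16) or median of ratios (DESeq2 1.42.0, R 4.3.3). The ratio and correlation code was tested on simulated counts.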

Additional observations from a re-analysis of the deposited data

Results flagged for a closer look

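In Pou4f-positive Tomato- cells, title number 17 stood apart from the other title numbers for 2 of the 6 genes. Peli2 was at 228.8 CPM there, against 99.7 CPM in the next highest title number. Fstl5 was at 75.4 CPM, against 38.8 CPM. On the CPM scale, and not the log2 scale of the ratios and SDs above, the gap to the next value was 0.564 and 0.487 of the whole range. Both were above the 95% limit of Dixon's test for 10 values. The gaps on the log2 scale were not examined. These rest on 5 and 3 positive cells of 12. In all, 24 sets of 10 title numbers were examined. The limit is set for a rate of about 1 in 20 among independent, normally distributed values. Title numbers are not replicates, the sets share cells, and both flags come from the same 12 cells. How often chance passes the limit here is therefore not known.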

How the results depend on the processing

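The log2 ratios between the labels kept their direction for Ppp1r17 and Pou3f1 in every alternative tried. With 50 CPM added in place of 10, they were 0.70 and 0.63 over all kept cells and 1.08 and 0.89 in Pou4f-positive cells. TMM and median-of-ratios scaling lowered the Tomato- levels against the Tomato+ ones by log2 values of 0.080 and 0.081 in Pou4f-positive cells and by 0.12 and 0.14 over all kept cells. Leaving out single title numbers gave 1.67 to 2.05 for Ppp1r17 and 1.55 to 1.79 for Pou3f1 in Pou4f-positive cells, each lowest without title number 17. Co-detection over both labels, as the share in cells with the partner minus that in cells without it, in percentage points, was 21.3 for Pou3f1, 11.8 for Pou3f2, 9.71 for Thsd7b, 5.87 for Fstl5 and 24.3 for Peli2 with Ppp1r17, and 21.2 for Peli2 with Pou3f1. With at least 1 count, the differences from Ppp1r17-negative cells were 14.05 for Pou3f1, 6.499 for Pou3f2, 1.60 for Thsd7b, 5.22 for Fstl5 and 22.1 for Peli2, and Peli2 with Pou3f1 gave 19.2. Thinned, Pou3f1 gave 16.7, Thsd7b 5.72, Fstl5 6.65 and Peli2 28.99 with Ppp1r17. Within Tomato+ cells, Pou3f1 gave 12.996 and Thsd7b -4.27 with Ppp1r17, the second reversed, Fstl5 gave 12.04 and Peli2 15.2, and Peli2 with Pou3f1 gave 9.99. Within Tomato- cells, Pou3f1 gave 15.9, Pou3f2 9.71, Thsd7b 16.6, Fstl5 2.995 and Peli2 29.2 with Ppp1r17. Fstl5 with Ppp1r17 was 1.52 without title number 18. Within Tomato- cells without progenitor markers, an alternative chosen after seeing the data, Pou3f1 gave 13.3, Pou3f2 6.19 and Thsd7b 8.10 with Ppp1r17, and Peli2 with Pou3f1 gave 37.5. Thsd7b with Ppp1r17 gave 15.8 with Pou4f-positive set at 1 count. The cause of these changes was not tested. Of the 8 genes most like Ppp1r17, 4 stayed among the 8 when detection replaced the log level. Tomato+ shares with Ppp1r17 rest on 20 cells. No paired analysis was possible because each label is 1 sample and the result comes from no test.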
